A study of Mus musculus with 10 samples.

Results

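The follicle epithelium was set against the dermal mesenchyme by pooling the 4 arrays of matrix (Mx) and outer root sheath (ORS) cells and comparing them with the 4 arrays of dermal papilla (DP) and dermal fraction (DF) cells. These 8 arrays are part of a set of 10, and the 2 melanocyte (Mc) arrays stayed out of the test and are given beside it. All cells came from backskin of 4 day old (P4) mice that carried both K14-H2BGFP, a nuclear green label driven by the keratin 14 promoter of skin epithelium, and Lef1-RFP, a red label driven by a fragment of the human Lef1 promoter. Backskins of several mice were pooled for a preparation, the strain is not given in the sources used here, and epidermis and upper follicle were removed with dispase before sorting. Mx were GFP-low and RFP-, ORS were GFP-high and RFP-, DP were RFP-high and GFP-, DF were negative for both labels, and Mc were RFP-high, GFP- and CD117+. DP and DF were also depleted of cells bearing CD34, CD45 and CD117, surface proteins of endothelial cells, leukocytes and melanocytes. Each population was hybridised in duplicate.

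A gene was taken as a member where all 4 arrays of one side lay above all 4 of the other and where limma called it, that is at an adjusted p under 0.05 and at least 2-fold on the log2(signal + 50) scale. Of 12393 genes, 342 (2.76%) were members with the epithelium above and 813 (6.56%) with the mesenchyme above. Separation alone was met by 1279 genes (10.3%) with the epithelium above and by 3016 (24.3%) with the mesenchyme above, and the call alone by 352 (2.84%) and 824 (6.65%). Since separation chose the members, the gaps between the sides are given as a description.

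Epithelia and mesenchymes differ in how their cells hold together. Keratinocytes join through cadherins, desmosomes and tight junctions, anchor keratin filaments to them and secrete little fibrillar matrix, whereas fibroblast-like cells carry vimentin filaments, lie apart from each other and build collagen. In the hair follicle both layers also exchange secreted signals, the dermal papilla being the mesenchymal cluster that the matrix surrounds and the outer root sheath the layer that is continuous with the epidermis. Genes that run these programmes include transcription factors of the Zeb and Snail families, which in vertebrates bind the E2 box and are known as repressors of epithelial genes.

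To show where such a box lies, the 250 bases upstream of the annotated start are given 5′ to 3′ on the strand of the gene for 2 epithelial members, Epcam (chr17:87635729-87635978, plus strand) and Krt5 (chr15:101712906-101713155, minus strand), and for 2 mesenchymal members, Col3a1 (chr1:45311288-45311537, plus strand) and Vim (chr2:13574061-13574310, plus strand). Sequences are from RefSeq on build GRCm38.p6, and capitals mark the E2 box, searched as CACCTG and its reverse complement CAGGTG.
Epcam: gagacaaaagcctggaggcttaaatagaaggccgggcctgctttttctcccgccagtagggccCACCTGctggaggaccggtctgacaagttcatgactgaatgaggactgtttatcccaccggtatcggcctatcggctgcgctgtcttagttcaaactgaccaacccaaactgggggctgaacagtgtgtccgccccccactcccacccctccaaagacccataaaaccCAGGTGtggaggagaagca
Krt5: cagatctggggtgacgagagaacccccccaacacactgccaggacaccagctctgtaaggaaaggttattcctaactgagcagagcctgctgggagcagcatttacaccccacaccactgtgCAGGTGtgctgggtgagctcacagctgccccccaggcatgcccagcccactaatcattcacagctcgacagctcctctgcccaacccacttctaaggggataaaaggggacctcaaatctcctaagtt
Col3a1: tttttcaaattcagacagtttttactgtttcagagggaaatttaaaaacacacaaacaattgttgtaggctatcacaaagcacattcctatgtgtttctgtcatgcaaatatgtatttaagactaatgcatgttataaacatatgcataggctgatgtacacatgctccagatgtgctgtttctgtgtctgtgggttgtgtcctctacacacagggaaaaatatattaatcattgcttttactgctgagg
Vim: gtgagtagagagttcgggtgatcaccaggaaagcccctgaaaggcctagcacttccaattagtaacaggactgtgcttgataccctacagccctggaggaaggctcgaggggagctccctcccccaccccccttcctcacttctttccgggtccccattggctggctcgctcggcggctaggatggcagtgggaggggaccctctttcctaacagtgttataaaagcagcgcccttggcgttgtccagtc
The Epcam window held 2 such boxes, the first base of each lying 187 and 19 bases before the start, and the Krt5 window held 1, at 128 bases. The windows of Col3a1 and Vim held none of these letters. Among members with a promoter in the table, the box occurred in 64 of 269 epithelial windows (23.8%) and in 79 of 621 mesenchymal windows (12.7%). The share over all genes on the array was 1596 of 9887 (16.1%), and over all promoters of the table it was 4620 of 27025 (17.1%). The GC box, GGGCGG on either strand, occurred in 68.8% of epithelial and 59.7% of mesenchymal windows, with 53.2% over all genes on the array and 32.9% over all promoters. The TATA box, TATAAA on either strand, occurred in 7.81% and 7.73%, with 9.14% over all genes on the array and 13% over all promoters. The AP-1 site, TGACTCA and its reverse complement, occurred in 5.2% and 2.74%, with 3.9% and 4.43%. None of the 4 motifs contains another, though their ends can overlap. These are counts of letters in a window.

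Each value is a MAS 5.0 signal, a linear brightness of a probe-set that is scaled within an array and can be compared between arrays but not between genes. The median signal of an array was 49.9 and 60 in Mx, 67.8 and 70.5 in ORS, against 79.4 and 90.9 in DP and 82.3 and 88 in DF, and 60.1 and 68.1 in Mc. All 4 mesenchymal medians thus lay above all 4 epithelial ones, and the median log2 difference over all genes, epithelium minus mesenchyme throughout, was -0.13. After quantile normalization that median was 0.02. In probe-sets, 555 (2.45%) were called higher in epithelium and 1241 (5.48%) higher in mesenchyme, so that the epithelium held 30.9% of the calls. Quantile normalization gave 723 and 936, an epithelial share of 43.6%, and it turned the balance of separated probe-sets, which was 2141 with the epithelium above (9.46%) against 5057 with the mesenchyme above (22.4%), to 3623 against 2605. Rescaling each array to the same trimmed mean gave 683 and 1135 calls and 2637 against 4348 separated. Of the members, 330 of 342 epithelial (96.5%) and 603 of 813 mesenchymal genes (74.2%) were also called after quantile normalization. Members with low signal were frequent in the mesenchyme: a signal of 200 in both arrays of a population was reached by 301 of the 342 and by 589 of the 813.

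**Figure D1:**
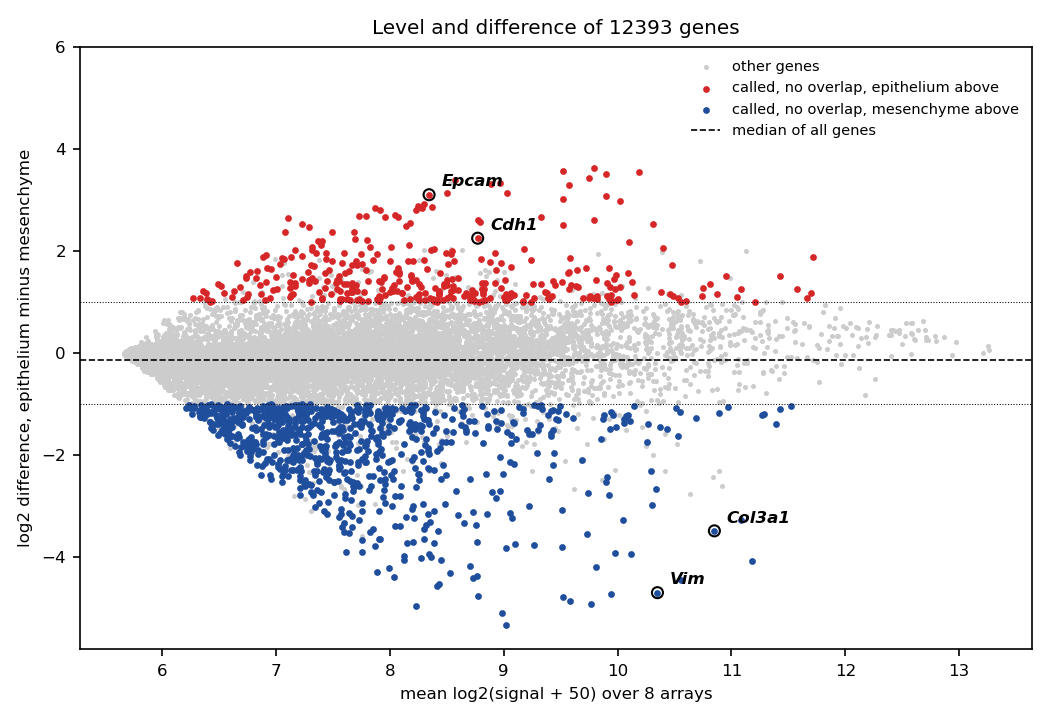
Each point is 1 of 12393 genes, with its mean log2(signal + 50) over 8 arrays on the x axis and its log2 difference, epithelium minus mesenchyme, on the y axis. Red points are the 342 members with the epithelium above and blue points the 813 with the mesenchyme above, dotted lines mark 2-fold, and the dashed line is the median of all genes at -0.13.

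The sides were checked against their markers first, and each marker was higher on the side it is known for. Epcam, a cell adhesion protein of simple and hair follicle epithelium, gave a signal of 742 and 885 in Mx and 1112 and 909 in ORS, against 49.5 and 47.7 in DP and 66 and 83.8 in DF (log2 difference 3.10 ± 0.15 (SE), adjusted p = 2.48e-05). Cdh1, E-cadherin of adherens junctions, gave 793 and 879 in Mx and 1050 and 911 in ORS, against 156 and 93 in DP and 153 and 218 in DF (2.25 ± 0.19 (SE), adjusted p = 0.000318). In Mc, Epcam was at 5.7 and 7.5 and Cdh1 at 473 and 525, so that melanocytes lay below the mesenchyme for Epcam and between the sides for Cdh1. Vim, the intermediate filament of mesenchymal cells, gave 196 and 178 in Mx and 246 and 212 in ORS, against 4959.5 and 5794 in DP and 9200.1 and 7175 in DF (-4.69 ± 0.19 (SE), adjusted p = 1.21e-05). Col3a1, a fibrillar collagen, gave 427 and 602 in Mx and 371 and 650.5 in ORS, against 5700.3 and 5938 in DP and 6123 and 6694 in DF (-3.48 ± 0.17 (SE), adjusted p = 2.87e-05). Mc lay between the sides for both mesenchymal genes, at 1747 and 1469 for Vim and at 1280.3 and 921 for Col3a1. The sides did not overlap for any of these 4 genes. Krt5 and Krt14 among keratinocyte markers and Col1a2 and Pdgfra among mesenchymal markers were called in the same directions. Krt14 is no independent check, since the cells were sorted by a label driven by its promoter.

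A stricter set was at least 2-fold apart in all 4 pairs of populations, so that neither population of a side carried the difference alone. It held 139 epithelial genes (1.12%) and 411 mesenchymal genes (3.32%). The smallest pair difference ordered the leading genes. The epithelial list opened with Lgals7, galectin-7 of stratified epithelia, at 2556 and 3016 in Mx and 2177 and 3521 in ORS, against 147 and 138 in DP and 196 and 466 in DF (3.43 ± 0.33 (SE), adjusted p = 0.000605). Dmkn, dermokine, secreted by keratinocytes, followed at 3452 and 2172 in Mx and 1944 and 2057 in ORS, against 166 and 182 in DP and 68 and 534 in DF (3.30 ± 0.45 (SE), adjusted p = 0.00282). Serpinb5 (maspin) ranged from 1403 to 1569.8 on the epithelial arrays, against 75.4 to 246 on the mesenchymal arrays, with a difference of 3.15. In each of these genes DF replicate 2 was the highest mesenchymal array, but it stayed more than 2-fold below the lowest epithelial one.

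Other leading epithelial genes encode junction and barrier proteins, given here as the range over the epithelial arrays against that over the mesenchymal arrays. Sfn, 14-3-3 sigma, had 1014 to 1384 against 14.1 to 221, Perp, a tetraspan protein of desmosomes, 2626 to 3138 against 220.1 to 749, and Pkp1, a desmosomal plakophilin, 1042 to 1986 against 31.8 to 436. Gjb2, connexin 26, had 1600.1 to 4476 against 180.5 to 611, and Lsr, a component of tricellular tight junctions, 287 to 352 against 5.6 to 31.3. Esrp1, a splicing factor that sets epithelial exon choice, gave 879 and 1155 in Mx and 1062 and 1009 in ORS, against 20.4 and 47.4 in DP and 82.3 and 198 in DF (3.13 ± 0.35 (SE), adjusted p = 0.00126). The remaining leading genes on this side were Krt17, Scel, Fxyd3, Ripk4 and Lypd3, with differences of 3.57, 2.85, 3.52, 2.71 and 2.87.

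On the mesenchymal side the largest of these smallest pair differences belonged to Pcolce, which enhances the cleavage of procollagen. Its signal was 18.6 and 30.4 in Mx and 38.3 and 41.1 in ORS, against 3134 and 3533 in DP and 2652 and 3762 in DF (-5.33 ± 0.14 (SE), adjusted p = 9.5e-07). Meg3, a maternally expressed long noncoding RNA, gave 80.4 and 122 in Mx and 110.4 and 126 in ORS, against 4611 and 4585 in DP and 5047 and 4802 in DF (-4.92 ± 0.10 (SE), adjusted p = 5.7e-07), and its 4 other probe-sets were called the same way. Nid1, nidogen of basement membranes, gave 17.8 and 37.8 in Mx and 44 and 40.6 in ORS, against 2144 and 2412 in DP and 2183 and 2194 in DF (-4.76 ± 0.11 (SE), adjusted p = 6.13e-07). In each of these genes DP and DF were close to each other and far above all epithelial arrays.

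Col6a1, Col6a2 and Col6a3, the chains of collagen VI, stood together among the leading genes, with differences of -4.78, -4.72 and -4.86. Prrx1, a homeobox factor of limb and skin mesenchyme, gave 2.7 and 6.6 in Mx and 11.1 and 16.9 in ORS, against 1085 and 1131 in DP and 951 and 1038 in DF (-4.22 ± 0.09 (SE), adjusted p = 5.7e-07). Grb10, an imprinted adaptor that dampens insulin receptor signalling, gave 34.5 and 52.9 in Mx and 55.1 and 41.8 in ORS, against 1869 and 2085 in DP and 1964 and 1789 in DF (-4.37 ± 0.09 (SE), adjusted p = 5.7e-07), and it was also high in Mc, at 1783 and 1444, where Pcolce, Meg3 and Prrx1 were at most 144. Sparcl1, Rgs5, Pdgfrb, Cdh11, Lama2 and Mapre2 completed the list with differences from -5.10 (Rgs5) to -3.99 (Mapre2). Rgs5 is known as a pericyte gene, and it read 934 and 1983 in DP, against 6184 and 6114 in DF.

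**Figure D2:**
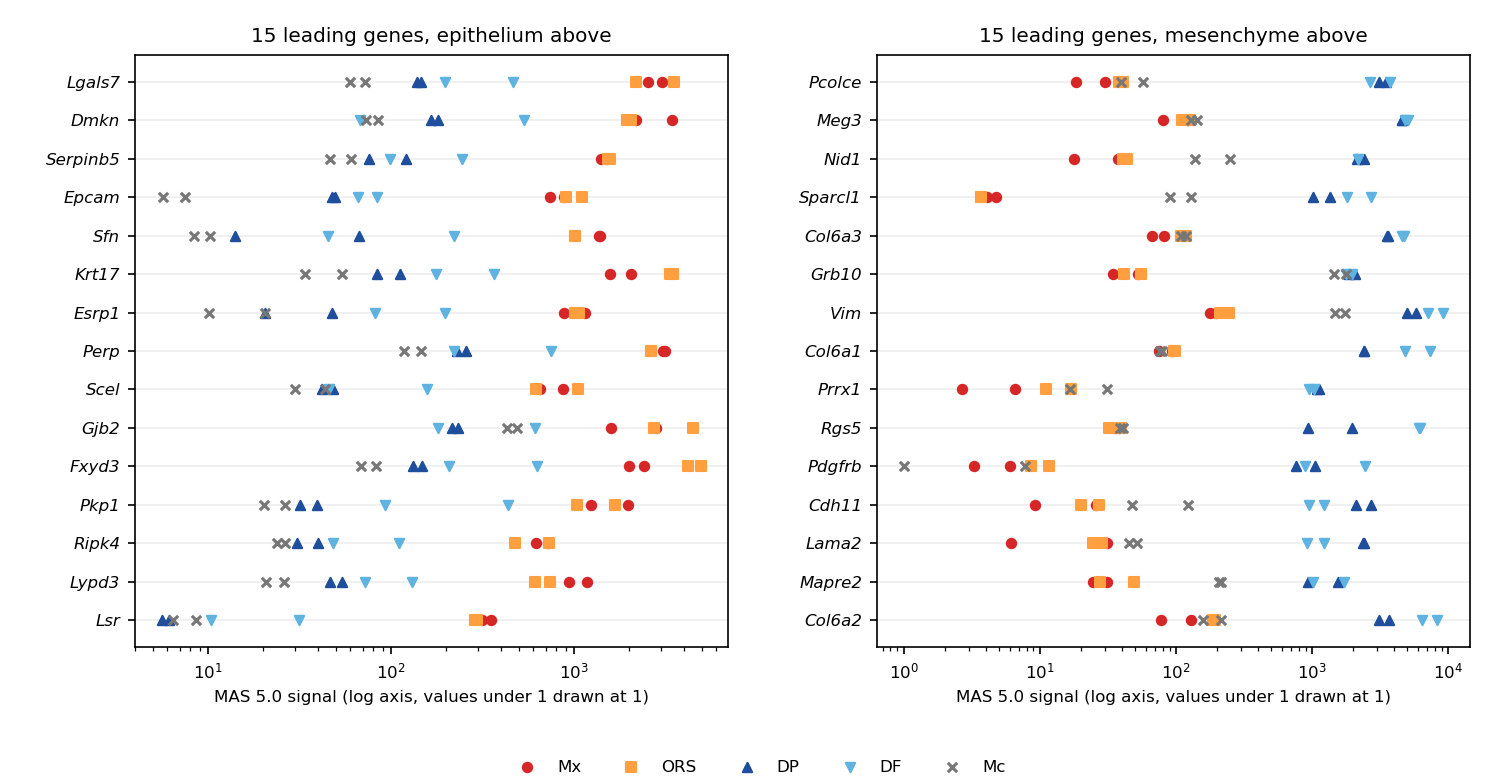
Signals of the 15 leading genes of each side on all 10 arrays, on a log axis, with 2 points for each population (Mx, ORS, DP, DF and Mc). Left, the epithelial points lie right of all mesenchymal ones, with DF replicate 2 often nearest to them. Right, the mesenchymal points lie right of all epithelial ones, and Mc joins them for Grb10.

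Gene lists by role showed where each side's members lay, beside a background of 2.84% of all genes called higher in epithelium and 6.65% higher in mesenchyme. In bulk samples, fewer cells of a type and less RNA per cell cannot be told apart, and this holds for every list below. Where signals are summed over a list, its brightest probe-sets weigh most, and the sums are compared only between arrays. Of 13 desmosomal genes on the array 8 were called, all higher in epithelium, with a median difference of 1.47. Dsp, desmoplakin, which ties desmosomes to keratin filaments, gave 3363 and 3145 in Mx and 2783 and 2818 in ORS, against 319 and 348 in DP and 400.1 and 1131 in DF (2.54 ± 0.35 (SE), adjusted p = 0.00294). Dsg2, a desmosomal cadherin, had 317 to 999 against 44.6 to 122 (2.55), and Pkp3 803 to 1266 against 91.8 to 274 (2.57). Of 25 adherens and tight junction genes 9 were called, all higher in epithelium, but the median of that list was 0.24. Its called members included Cldn1 (1.97), a claudin that seals tight junctions, and Cdh3, P-cadherin (1.58). F11r, junctional adhesion molecule A, was separated at 610.1 and 504 in Mx and 1024 and 986 in ORS, against 38.6 and 29.8 in DP and 446 and 376 in DF, and it was not called (adjusted p = 0.058).

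Of 16 keratins of basal and suprabasal epithelium 6 were called, all higher in epithelium (median 1.28). Krt14, the basal keratin whose promoter drove the green label, gave 1588 and 1757 in Mx and 4932 and 6499.8 in ORS, against 128 and 102 in DP and 219 and 502 in DF (3.64 ± 0.58 (SE), adjusted p = 0.0051). The sort thus used the activity of that promoter. Another Krt14 probe-set differed by 3.55 and was called the same way (adjusted p = 0.011), and a further one differed by 0.45 and was not called. Krt5, its partner, ranged over 2111 to 7679 against 155 to 845 (3.54). Krt15 had a large mean difference, 3.34, but at 139 and 266 in Mx and 5034 and 6261 in ORS, against 14 and 29.8 in DP and 97.2 and 194 in DF its epithelial signal came mainly from ORS, one DF array exceeded one Mx array, and it was not called (adjusted p = 0.0808). None of 17 keratins of hair shaft or inner root sheath was called by limma in the pooled comparison. At an unadjusted p under 0.05 there were 5, and with a mean for each population 5 were called. Without ORS replicate 1 the count was 5. Krt71, of the inner root sheath, read 5403 and 5774 in Mx and 996 and 1462 in ORS, against 697 and 684 in DP and 205 and 1445 in DF, so that DF replicate 2 and ORS overlapped. The summed signal of this list was 29124 and 29143 in Mx, 4289 and 8144 in ORS, against 4383 and 4708 in DP and 1955 and 9335 in DF.

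Epithelial transcription factors were called in 12 of 34 cases, all higher in epithelium, with a median of 1.23. Trp63, the p53 relative that maintains stratified epithelia, gave 1058 and 1181 in Mx and 2326 and 1926 in ORS, against 38.2 and 57.9 in DP and 139.5 and 290.4 in DF (3.34 ± 0.45 (SE), adjusted p = 0.00269). Bnc1, basonuclin of basal keratinocytes, had 253 to 1146 against 24.2 to 93.1 (2.81), Lhx2, a LIM homeobox factor of follicle progenitors, 320.5 to 1386 against 30.1 to 95.8 (2.67), and Grhl2, a grainyhead factor, 416 to 822 against 20.4 to 133 (2.50). Trim29 (2.51) and Dlx3 (2.11) were also among the largest. Of 25 genes for splicing, surface proteases and trafficking in epithelia 14 were called, all higher in epithelium, and their median was 1.82, the highest of the lists. Esrp2, the second epithelial splicing regulator, read 453 and 823 in Mx and 237 and 375 in ORS, against 28.6 and 44.7 in DP and 35.7 and 125 in DF (2.23 ± 0.38 (SE), adjusted p = 0.00631). Sytl1, a synaptotagmin-like trafficking protein, had 141 to 368 against 5.6 to 20.4 (2.38). Of 17 genes of the cornified envelope 6 were called, all higher in epithelium (median 0.28), among them S100a14 (3.02), Krtdap (1.85) and Calml3 (1.63). The call of Calml3 was lost without any 1 of 4 arrays, namely Mx replicate 1, DF replicate 1 and both DP arrays (adjusted p up to 0.0596).

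Genes that fasten epithelium to its basement membrane divided the epithelial side. Of 17, Col17a1 and Itga3 were called higher in epithelium and Dst higher in mesenchyme, with a median of 0.31. Col17a1, a transmembrane collagen of hemidesmosomes, read 126 and 241 in Mx and 1403 and 1985 in ORS, against 9.6 and 18.7 in DP and 40 and 106 in DF (2.84 ± 0.81 (SE), adjusted p = 0.0382), most of it in ORS. Lamb3, a chain of laminin-332, was separated at 69.8 and 87.4 in Mx and 498 and 709 in ORS, against 18.2 and 32.8 in DP and 50.4 and 61.2 in DF but was not called (adjusted p = 0.0795). Dst, which gives rise to both epithelial and other isoforms, read 18.1 and 29.1 in Mx and 108 and 140.3 in ORS, against 582 and 490.5 in DP and 587 and 506 in DF (-2.39 ± 0.33 (SE), adjusted p = 0.0029). Another Dst probe-set differed by -1.05 and was called the same way, and 2 more differed by 2.13 and 2.44, higher in epithelium, without being called, so the gene has no single direction on this array. With a mean for each population, 7 genes of this list were called higher in epithelium. The calls of Col17a1 and Itga3 were each lost when any of 6 single arrays was left out, DF and DP arrays among them, with adjusted p up to 0.0877 for Col17a1 and 0.0824 for Itga3.

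Genes of the extracellular matrix were mostly higher in mesenchyme. Of 34 genes for collagens and their processing 23 were called, all higher in mesenchyme, with a median of -2.38. Col1a2, a chain of collagen I, gave 319 and 481 in Mx and 609 and 734 in ORS, against 8060.5 and 7124 in DP and 12178 and 11643 in DF (-4.08 ± 0.27 (SE), adjusted p = 0.000118). Sparc, a collagen-binding matricellular protein, gave 129 and 176 in Mx and 341 and 638 in ORS, against 4192 and 4752 in DP and 10997 and 11153 in DF (-4.46 ± 0.51 (SE), adjusted p = 0.00134). Col11a1, a chain of collagen XI, had 12.4 to 47.1 against 891 to 3123 (-4.30). Summed over the list, the signal was 2793 and 4095 in Mx, 12670.2 and 15279 in ORS, against 52094 and 56833 in DP and 91940 and 87308 in DF. Both ORS arrays thus held more of it than both Mx arrays, and the epithelial and mesenchymal ranges did not meet.

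Proteoglycans and glycoproteins of the matrix were called higher in mesenchyme in 23 of 48 cases and higher in epithelium in 2 (median -1.83). Lama2, laminin of the mesenchymal type, had 6.2 to 31.4 against 928 to 2406 (-4.52), Fbn2, fibrillin-2, 12.4 to 29.6 against 537 to 2067 (-3.97), Fbln2, fibulin-2, 40.4 to 235 against 1279.5 to 3467 (-3.77) and Vcan, versican, 59.5 to 153 against 893 to 4012 (-3.74). Lama4, a laminin chain of vessels and muscle, differed by -3.64. The 2 exceptions were Sdc1, a cell surface proteoglycan of epithelia, at 1119.7 and 1264 in Mx and 1942 and 2478 in ORS, against 868 and 844 in DP and 513 and 676 in DF (1.13 ± 0.27 (SE), adjusted p = 0.0225), and Mgp, matrix Gla protein, at 145 and 89.4 in Mx and 570 and 518 in ORS, against 3.7 and 25.2 in DP and 51.2 and 96.9 in DF (1.83 ± 0.55 (SE), adjusted p = 0.046). Mgp overlapped between DF replicate 2 and Mx replicate 2, and its call was lost without any 1 of 7 arrays (adjusted p up to 0.103). That of Sdc1 was lost without any 1 ORS or DF array, through the 2-fold limit or through the adjusted p (up to 0.0561). Dcn, decorin, which is known as a dermal proteoglycan, read 4725 and 3052 in Mx and 1766 and 890.2 in ORS, against 529 and 636 in DP and 1326 and 1914 in DF, and Fn1, fibronectin, 891 and 891 in Mx and 1187 and 1601 in ORS, against 323 and 538 in DP and 3247 and 3265 in DF. Neither was called, and both were picked after their values were seen.

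Of 40 mesenchymal transcription factors 23 were called, all higher in mesenchyme (median -1.34). Ebf1, an early B cell factor also known in mesenchyme, gave 0.3 and 0.4 in Mx and 0.5 and 1.1 in ORS, against 1398 and 982 in DP and 370.2 and 471 in DF (-3.90 ± 0.37 (SE), adjusted p = 0.000587). Mef2c, a MADS box factor, had 2.6 to 15.6 against 516 to 1113 (-3.89) and Tbx15, a T-box factor of the dermis, 10.8 to 16.8 against 342 to 710.5 (-3.15). Twist1, a basic helix-loop-helix factor, read 12.7 and 2.9 in Mx and 5.9 and 13 in ORS, against 787 and 880 in DP and 238 and 273 in DF (-3.15 ± 0.40 (SE), adjusted p = 0.002). Of the factors that bind the E2 box, Zeb2 gave 1.6 and 11.6 in Mx and 15.6 and 7.2 in ORS, against 725 and 936 in DP and 426 and 525 in DF (-3.52 ± 0.22 (SE), adjusted p = 9.07e-05). Zeb1, Snai1, Snai2 and Twist2 were added to the named genes after their values were seen. Zeb1 read 13.8 and 9.8 in Mx and 25.2 and 30.9 in ORS, against 245 and 239.8 in DP and 739.6 and 710.2 in DF (-2.78 ± 0.37 (SE), adjusted p = 0.00254) and Snai1 25 and 34.8 in Mx and 23.4 and 35.9 in ORS, against 131 and 166 in DP and 103 and 126 in DF (-1.18 ± 0.12 (SE), adjusted p = 0.00068). Snai2 was the exception: it read 39.8 and 41.7 in Mx and 212 and 222 in ORS, against 358 and 469 in DP and 102 and 75 in DF, ORS lay above DF, and it was not called (adjusted p = 0.423). Twist2 differed by -2.68 and its sides did not overlap.

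Among 29 receptors and adhesion molecules of mesenchyme 20 were called, all higher in mesenchyme (median -2.15). Pdgfra, the receptor for platelet-derived growth factor A, gave 4 and 4.1 in Mx and 3.2 and 2.8 in ORS, against 1450.5 and 1633 in DP and 609.8 and 658 in DF (-4.28 ± 0.32 (SE), adjusted p = 0.00019), and its relative Pdgfrb gave 6 and 3.3 in Mx and 11.8 and 8.6 in ORS, against 759.7 and 1049.6 in DP and 883 and 2467 in DF (-4.39 ± 0.33 (SE), adjusted p = 0.000201). All epithelial arrays lay below 15 for both receptors. Cdh11, a cadherin of mesenchyme, had 9.3 to 27.4 against 951 to 2731 (-4.57), Cd248, endosialin, 2.9 to 60.3 against 576 to 1348 (-3.64), and Lrp1, a lipoprotein receptor, 96.9 to 168 against 880.1 to 1461 (-2.73). Cdh2, N-cadherin, was added after its values were seen and read 14.6 and 7.3 in Mx and 13.8 and 8.1 in ORS, against 291 and 284 in DP and 155 and 196 in DF (-2.18).

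Of 26 genes of the mesenchymal and contractile cytoskeleton 8 were called, all higher in mesenchyme (median -1.41). Lgals1, galectin-1, had 241 to 1337 against 5114 to 9344 (-3.27) and S100a4, fibroblast-specific protein, 36.5 to 62.7 against 361 to 1636 (-3.05). Acta2, smooth muscle actin, read 205 and 236 in Mx and 1938 and 2614 in ORS, against 1592 and 2576 in DP and 8748 and 8536 in DF, ORS and DP overlapped, and it was not called (adjusted p = 0.0979). Of 27 matrix proteases and inhibitors 10 were called, all higher in mesenchyme (median -1.02), with Serpinf1 (-4.06), Reck (-3.13) and Ctsk (-2.85) the largest. Of 21 complement and chemokine genes 5 were called higher in mesenchyme, including Cxcl1 (-3.23), Serping1 (-3.22) and C1s1 (-2.58). One was called higher in epithelium, Cxcl14, a chemokine of keratinocytes, at 635 and 315 in Mx and 1351 and 1587 in ORS, against 76.4 and 52.5 in DP and 56.4 and 74.4 in DF (2.93 ± 0.45 (SE), adjusted p = 0.00432). Its other probe-set differed by 1.34, was not separated and was not called (adjusted p = 0.106).

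Genes of cell division were higher in epithelium. Of 43 genes of S phase and mitosis 25 were called, all higher in epithelium, the median was 1.09, and all 43 had a difference above 0. Gmnn, geminin, which restrains DNA licensing, gave 570.3 and 494 in Mx and 676 and 452 in ORS, against 91.9 and 115 in DP and 122 and 142 in DF (1.83 ± 0.14 (SE), adjusted p = 0.000225). Uhrf1, which reads hemimethylated DNA, had 706 to 1293 against 174 to 371 (1.69), Tk1, thymidine kinase, 648 to 973 against 136 to 360.1 (1.63) and Mki67, the proliferation antigen, 1396 to 2082 against 334 to 929 (1.54). The summed signal was 31254 and 28107 in Mx, 38762 and 31039 in ORS, against 10839 and 9980 in DP and 18640.3 and 17260 in DF, with 13872 and 13418 in Mc. DF lay above DP in that sum. The count of calls was 16 without ORS replicate 1 and 14 without DP replicate 2.

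**Figure D3:**
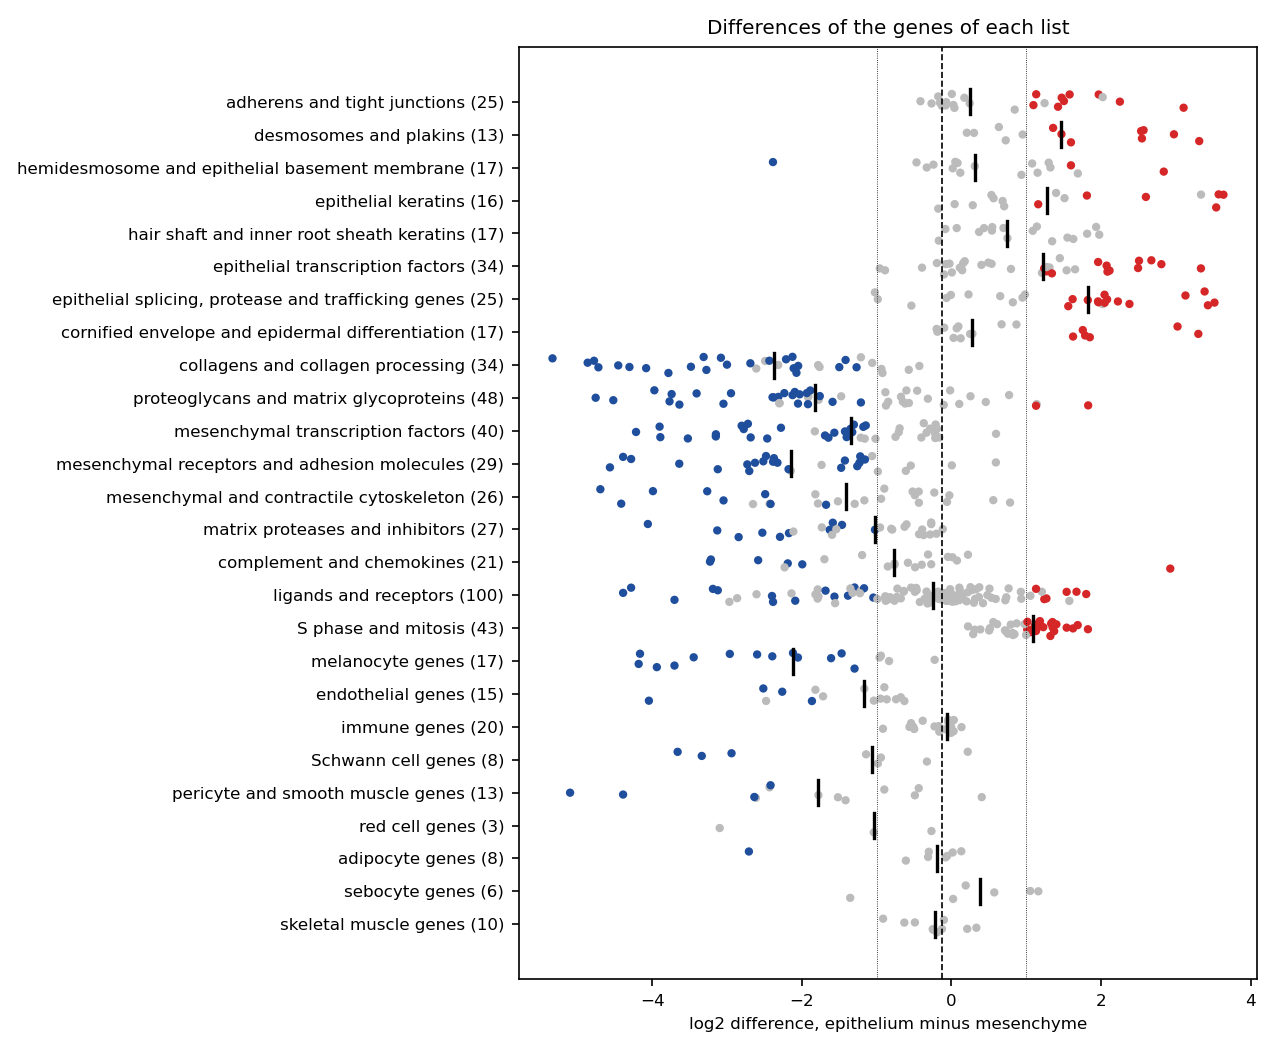
Log2 differences, epithelium minus mesenchyme, of the genes of 26 lists, with the number on the array in brackets. Red and blue points were called higher in epithelium and in mesenchyme, grey points were not called, black bars are list medians, and the dashed line is the median of all genes at -0.13. Junction, keratin and division lists lie to the right and matrix lists to the left, with a median of -2.38 for collagens.

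Ligands and receptors divided between the sides. Of 100 on the array, 6 were called higher in epithelium (2.84% of all genes) and 14 higher in mesenchyme (6.65%), with a median of -0.25. This balance depended on the settings: after quantile normalization 8 and 8 were called, with a median of -0.06, and with a mean for each population 9 and 27. Ligands on the epithelial side were Wnt4, Wnt10a, Jag2 and Efnb2. Jag2, a Notch ligand, read 237 and 381 in Mx and 488 and 739.9 in ORS, against 51.9 and 78.4 in DP and 92.7 and 139.9 in DF (1.80 ± 0.32 (SE), adjusted p = 0.0074), and Notch1, its receptor, read 1856 and 2453 in Mx and 947 and 1038 in ORS, against 232 and 244 in DP and 767 and 688 in DF (1.67 ± 0.46 (SE), adjusted p = 0.0351). Both partners of that pair were therefore higher on the same side. Wnt10a, a canonical Wnt ligand, had 165 to 342 against 70.3 to 95.9 (1.27), and Efnb2, ephrin-B2, 388 to 787 against 106 to 365 (1.24). Wnt4 read 465 and 614 in Mx and 409 and 336 in ORS, against 186 and 142 in DP and 58.2 and 122 in DF (1.54 ± 0.26 (SE), adjusted p = 0.00626), and Mc were as high as the epithelium at 568 and 712.

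Ligands on the mesenchymal side were Inhba, Mdk, Igf1, Fgf10 and Vegfc. Inhba, the activin A subunit, read 13.9 and 9.3 in Mx and 9.4 and 40.9 in ORS, against 1158 and 1108 in DP and 296 and 243 in DF (-3.19 ± 0.50 (SE), adjusted p = 0.0049). Igf1, insulin-like growth factor 1, read 2.2 and 20.4 in Mx and 15.2 and 35.7 in ORS, against 174 and 257 in DP and 229.9 and 299.5 in DF (-2.09 ± 0.18 (SE), adjusted p = 0.00043), with DP and DF overlapping. Mdk, midkine, had 44 to 57.4 against 162 to 1298 (-2.40), Fgf10 3.4 to 11.1 against 34.5 to 265 (-1.38) and Vegfc 0.5 to 14.3 against 54.6 to 70.8 (-1.04). Receptors on this side, besides those for platelet-derived growth factor, were Ednrb, Tgfbr2, Pth1r, Gfra1, Ngfr, Kit and Nrp1. Tgfbr2, the type II receptor for transforming growth factor beta, read 49.3 and 49.8 in Mx and 311 and 241 in ORS, against 1133 and 1233 in DP and 2074 and 1817 in DF (-3.12 ± 0.47 (SE), adjusted p = 0.00423). Pth1r, the parathyroid hormone receptor, had 0.7 to 1.4 against 116 to 366 (-2.39), and Ngfr, the low-affinity neurotrophin receptor, 29.5 to 97.7 against 167 to 299 (-1.56). Kit was called with a difference of -1.30 although DF replicate 2 lay below Mx replicate 2, at 98.7 and 199 in Mx and 83.5 and 78 in ORS, against 622 and 376 in DP and 347 and 152 in DF. Kit encodes CD117, the surface protein used to deplete DP and DF and to sort Mc. The study treats it as a melanocyte marker and did not detect it in the other populations. The part of melanocyte RNA in the receptor signals was not tested. Several of these calls were lost when 1 array was left out, which also leaves fewer arrays to estimate the spread. Notch1 was lost without any 1 Mx or DP array (adjusted p up to 0.0849). Efnb2, Fgf10, Mdk and Gfra1 were lost without any 1 Mx, ORS or DP array (up to 0.102, 0.101, 0.0717 and 0.107), and Kit without any 1 of 6 arrays (up to 0.0894). After quantile normalization Fgf10, Mdk, Gfra1, Kit, Nrp1 and Vegfc were not called.

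Several genes known for signalling in the follicle were carried by 1 population, and the pooled test did not call them. Fgf7, keratinocyte growth factor, read 32.3 and 23.1 in Mx and 22.4 and 23.9 in ORS, against 1826 and 2414 in DP and 125 and 99.4 in DF, and its difference of -2.97 had an adjusted p of 0.0554. Hhip, an inhibitor of hedgehog ligands, read 6 and 2.1 in Mx and 8.3 and 9.4 in ORS, against 1423 and 1643 in DP and 63.1 and 50.9 in DF (adjusted p = 0.0686), and Bmp6 16 and 13.8 in Mx and 28.6 and 57 in ORS, against 1331 and 1539 in DP and 99.3 and 98.5 in DF (adjusted p = 0.0595). In DP these 3 genes were more than 10-fold above DF, yet DF lay above all epithelial arrays. Igf2 showed the converse, at 50.7 and 67.5 in Mx and 116 and 143 in ORS, against 179 and 163 in DP and 1659 and 1666 in DF (adjusted p = 0.0787). Fgfr2, the receptor for Fgf7 and Fgf10, read 712 and 954 in Mx and 759 and 934 in ORS, against 1706 and 1885 in DP and 184 and 306 in DF, DP lay above both epithelial populations and DF below them, and it was not called. That order is of the brightest Fgfr2 probe-set, and the study instead lists Fgfr2 in its Mx signature. Another Fgfr2 probe-set differed by 0.06 and was not called. Kitl, the Kit ligand, read 914 and 1056 in Mx and 265 and 166 in ORS, against 83.1 and 129 in DP and 676 and 902 in DF and was not called either. Pdgfa, the ligand of Pdgfra, read 149 and 163 in Mx and 308 and 390.2 in ORS, against 186 and 238 in DP and 249.8 and 462 in DF and was not called (adjusted p = 0.748). Shh, the epithelial hedgehog ligand, stayed below 40 on every array, at 36.1 and 34.6 in Mx and 9.8 and 2.1 in ORS.

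**Figure D4:**
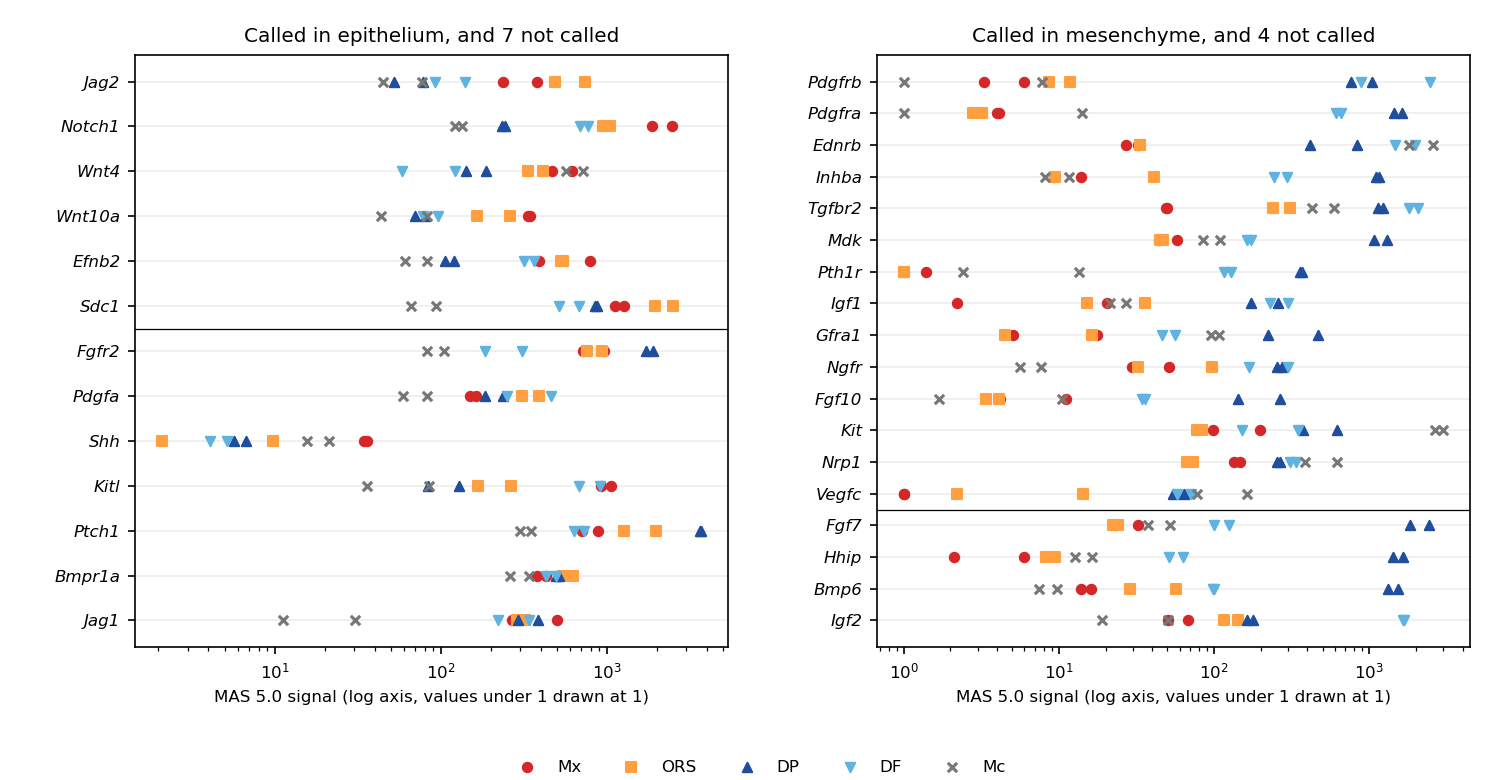
Signals of ligands and receptors on all 10 arrays, on a log axis, with 2 points for each population. Above the lines are the 6 genes called higher in epithelium (left) and the 14 called higher in mesenchyme (right), and below them 11 that were not called. Fgf7, Hhip and Bmp6 show DP apart from DF, with DF still right of the epithelium.

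Members differed within a side. The choice of members did not test this contrast, but spread within a side made a pooled call harder to reach. The shares over all genes are also not matched for level. A signal of 200 in both arrays of a population was reached by 301 of the 342 and 589 of the 813 members, against 5072 of 12393 genes. Mx against ORS, fitted with 1 mean per population, called 33 of the 342 epithelial members (9.65%), of which 6 were higher in Mx and 27 in ORS, where 0.783% and 3.92% of all genes were called. This count changed when 1 array was left out: it was 10 without ORS replicate 2, 15 without ORS replicate 1, and 19 without DP replicate 1 or without DP replicate 2. DP arrays enter this contrast only through the estimate of spread, and leaving out any array leaves fewer residual degrees of freedom. Calls over all genes fell as well, from 583 to 474 without either DP array. The influence of a given array was not separated from this loss. The share of members was then 2.92%, against 2.26% of all genes, without ORS replicate 2, and 4.39%, against 3.44%, without ORS replicate 1, so that without an ORS array the members were near the background. Without a DP array it was 5.56%, against 3.82%. Col17a1 had the largest difference, 126 and 241 in Mx, against 1403 and 1985 in ORS (Mx minus ORS -2.93 (adjusted p = 0.00659)). Gclc, the catalytic subunit of glutathione synthesis, read 214 and 393 in Mx, against 1453 and 1737 in ORS (-2.26 (adjusted p = 0.00483)), and Krt10, a keratin of suprabasal cells, 220.1 and 204 in Mx, against 1378 and 899 in ORS (-2.15 (adjusted p = 0.0023)). Fgfbp1, a carrier of fibroblast growth factors, read 478 and 332 in Mx, against 1489.8 and 1437 in ORS (-1.75 (adjusted p = 0.0204)), and Lhx2 322 and 320.5 in Mx, against 1386 and 1034 in ORS (-1.75 (adjusted p = 0.00431)). Cbr2, Gnmt and Krt14 were the other 3 of the 8 largest, and all 8 were higher in ORS. The pooled calls of Gclc, Krt10 and Cbr2 were lost without any 1 of 7, 6 and 4 arrays, with adjusted p up to 0.0954, 0.1 and 0.0644.

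DP against DF called 179 of the 813 mesenchymal members (22%), of which 87 were higher in DP and 92 in DF, where 1.98% and 3.06% of all genes were called. With 1 array left out the count lay between 119 and 173, the lowest without DP replicate 1. Islr, an immunoglobulin and leucine-rich repeat protein, read 2956 and 2698 in DP, against 165 and 140.3 in DF (DP minus DF 3.83 (adjusted p = 5.24e-05)). Corin, the protease that activates atrial natriuretic peptide, read 1628 and 1902 in DP, against 201 and 123 in DF (3.12 (adjusted p = 0.000514)), and Sfrp2, a secreted inhibitor of Wnt ligands, 1466 and 1454 in DP, against 99.9 and 142 in DF (3.16 (adjusted p = 0.000144)). Prss12, Scara5 and F5 were also higher in DP. In the other direction Ccdc80 read 239.7 and 435 in DP, against 3683 and 2893 in DF (-3.14 (adjusted p = 0.00153)) and Aoc3, vascular adhesion protein 1, 60.5 and 159 in DP, against 1194 and 1877 in DF (-3.35 (adjusted p = 0.00279)). By the rule for members, both DP and DF lay above every epithelial array for these 8 genes. With DP and DF this far apart, their pooled calls were unsteady: those of Islr, Sfrp2, Prss12, Scara5, F5 and Aoc3 were each lost without any 1 of 6 or 7 arrays, with adjusted p up to 0.0785, 0.0888, 0.0849, 0.0901, 0.0664 and 0.1. That of Corin was lost without Mx replicate 2 (adjusted p = 0.0545).

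Melanocytes, which derive from neural crest and were left out of the test, lay at or below the mesenchyme for most epithelial members. This placement includes genes that lay below the mesenchyme in Mc, such as Epcam. It was not counted over all genes, so a likeness of Mc to the mesenchyme cannot be read from it. Both Mc arrays lay at or below the highest mesenchymal array for 253 of 342 (74%), between the sides or split for 74, and at or above the lowest epithelial array for 15. Among the 15, chosen after their values were seen, was Cdh3, at 258 and 363 in Mx and 498 and 582 in ORS, against 121 and 92 in DP and 103 and 97.8 in DF, with 464 and 697 in Mc. Tfap2a, a transcription factor of skin and neural crest, read 384 and 708 in Mx and 530.1 and 534 in ORS, against 249 and 192 in DP and 146 and 201 in DF, with 811 and 754 in Mc. Of the 813 mesenchymal members, 245 had both Mc arrays at or below the highest epithelial array, and 377 lay between or split. In 191 (23.5%) both lay at or above the lowest mesenchymal array. With the epithelium lay Mylk, myosin light chain kinase, at 48 and 46.7 in Mc (29.8 to 81.1 against 767 to 4226, epithelial against mesenchymal arrays), and Fbln2, at 119 and 120.3. With the mesenchyme lay Emp3, a membrane protein also chosen after its values were seen, at 30.6 and 46.2 in Mx and 71.6 and 67.9 in ORS, against 1079 and 1147 in DP and 1225 and 957 in DF, with 1371 and 1988 in Mc.

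Pigment genes were themselves among the mesenchymal members, although DP and DF had been depleted of CD117+ cells. By immunofluorescence and RT-PCR, the study found tyrosinase, Kit and melanophilin in its Mc fraction and in no other population. It also showed DP without tyrosinase labelling in tissue, and on its arrays pigment granule mRNAs were higher in Mc than in DP. The difference between that evidence and the signals below was not tested. Of 17 melanocyte genes 13 were called, all higher in mesenchyme (median -2.12), and in 8 of the 12 that were members both Mc arrays lay above all mesenchymal arrays. Pmel, a melanosome protein, read 111 and 245 in Mx and 86.7 and 253 in ORS, against 7438 and 4706 in DP and 4174 and 1371 in DF (-4.18 ± 0.52 (SE), adjusted p = 0.00191), with 6950.4 and 7318 in Mc. Tyr, tyrosinase, read 43.8 and 59 in Mx and 39.8 and 40.3 in ORS, against 2725 and 1403 in DP and 1001 and 226 in DF (-3.45 ± 0.62 (SE), adjusted p = 0.00793), with 5829 and 5921 in Mc. Their sum over the list was 1073 to 2904 on epithelial arrays, against 6790 to 33616 on mesenchymal arrays, with 52710 and 59325 in Mc, and in both DP and DF replicate 1 was the higher. Of all 813 mesenchymal members, 552 (67.9%) had both Mc arrays below all 4 mesenchymal arrays, and 85 (10.5%) had both above. Neither share was counted over all genes. The part of melanocyte RNA in these calls was not tested.

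**Figure D5:**
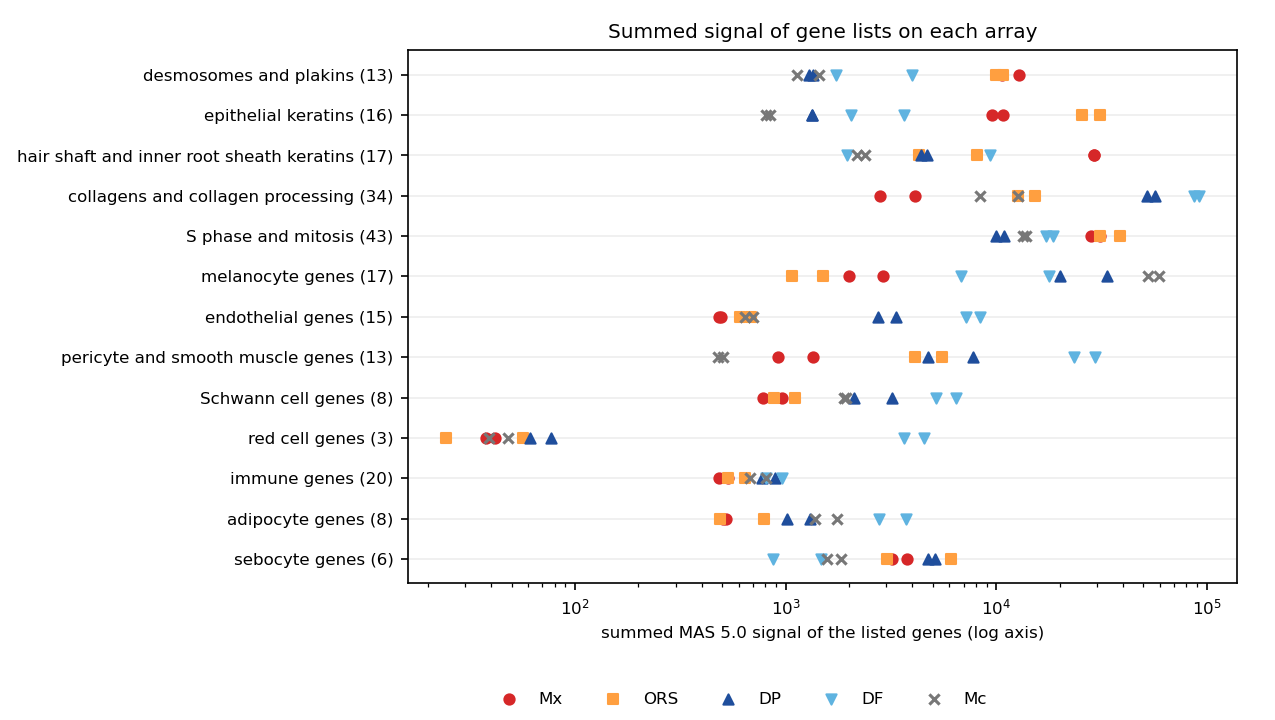
Summed signal of 13 gene lists on each of the 10 arrays, on a log axis, with the number of genes in brackets and 2 points for each population. Pigment genes run from 1073 in ORS to 59325 in Mc with DP and DF in between, and red cell genes stand apart in DF.

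Genes of several other cell types moved with the mesenchyme too, mostly through DF, but sebocyte genes did not. Endothelial genes summed to 481 to 685 on epithelial arrays, against 2758 and 3341 in DP and 8422 and 7210 in DF, and 4 of 15 were called higher in mesenchyme. Of their defining markers, Tie1 was at 0.9 and 1 in DP against 230 and 183 in DF, and Pecam1 was at 10.8 and 32.4 in DP, against 214 and 175 in DF, so that DP stayed close to the epithelial range for both. Sox18, which is also listed as endothelial, was higher in DP, at 1469 and 1798 in DP, against 798 and 644 in DF. Pericyte and smooth muscle genes summed to 918 to 5517 on epithelial arrays, against 4751 and 7760 in DP and 23338 and 29598 in DF, with 4 of 13 called. Myh11, smooth muscle myosin, read 76.9 and 65 in DP, against 1509 and 2092 in DF. Schwann cell genes summed to 780 to 1108, against 2114 to 6416, with 3 of 8 called (5 without DF replicate 2), Mbp among them at 169.6 and 443 in DP, against 2054 and 1490.5 in DF. Alas2, the red cell enzyme of haem synthesis, read 4.5 and 6.5 in DP, against 3462 and 4266 in DF, but none of the 3 red cell genes was separated or called by limma, with 0 at an unadjusted p under 0.05 and 2 called with a mean for each population. Of 20 immune genes none was called by limma and none reached 200, with 6 at an unadjusted p under 0.05 and none called with a mean for each population. Immune genes summed to 770 and 892 in DP and 805 and 957 in DF, against 483 to 640 on epithelial arrays. Adipocyte genes had 1 call of 8, Lpl, and neither 6 sebocyte nor 10 skeletal muscle genes had one by limma, with 2 and 3 at an unadjusted p under 0.05. Sebocyte genes summed to 872.5 and 1478 in DF, against 4739 and 5097 in DP and 3036 to 6095 on epithelial arrays. The part of these cell types in the mesenchymal calls was not tested.

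Genes of keratinocytes also gave signal on the dermal arrays. For 206 of the 342 epithelial members (60.2%) DF replicate 2 was the highest of the 4 mesenchymal arrays, against 28.8% of all genes, while DF replicate 1 was for 83 (24.3%), against 23.1% of all genes. Its summed desmosomal signal was 4001, against 1737 in DF replicate 1 and 1285 and 1352 in DP. The part of keratinocyte RNA in these values was not tested. Without DF replicate 2, 595 probe-sets were called higher in epithelium and 1175 higher in mesenchyme. On the other side, ORS replicate 2 was the highest epithelial array for 412 of the 813 mesenchymal members (50.7%), against 34.8% of all genes. Without it the counts were 624 and 1325.

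The 2-fold limit divided genes that hardly differed. Just inside it were Oxct1 (1960.5 to 2247 on epithelial arrays, 886 to 1120.2 on mesenchymal arrays) and Rars (596 to 1028 against 282 to 451) with the epithelium above, and Ntm (33.8 to 46.7 against 101 to 145) and Tspan15 (43.4 to 92 against 103 to 243) with the mesenchyme above. Just outside were H2az1 (2798 to 5169 against 1398 to 1947) and Ppa1 (306 to 669 against 164 to 258), and Sash1 (282 to 463 against 631 to 1012) and Klc1 (131 to 264 against 454 to 508). All 8 differed by 1.00 on the log2 scale after rounding. Where a member had more than 1 probe-set, as 539 did, another was called the same way in 280 and none was called the other way. Some called genes named above had other probe-sets of which none was called. Among these were Cxcl14, Dlx3, Efnb2, Esrp2, Grhl2, Itga3, Krt17, Notch1 and Tfap2a with the epithelium above. With the mesenchyme above they included Ccdc80, F5, Gfra1, Kit, Ngfr, Scara5 and Zeb1.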

How the data were processed

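RNA of sorted cells was amplified in 1 round by the study and hybridised to Affymetrix MOE430A arrays. The deposited values are linear signal intensities that the authors computed with MAS5, as the submitters' processing notes name it, each array being scaled to a target, per the study's methods. Over all probe-sets of the deposited table but the controls, the trimmed mean of an array nevertheless ran from 162 (Mx replicate 1) to 196 (DF replicate 2). The arrays were thus not equally scaled, and all lay below the target that the study states. Of 22690 probe-sets, 64 controls were left out, and all 22626 others were analysed without a filter as log2(signal + 50). An annotation gave 20380 probe-sets 1 gene, 691 several and 1555 none. For each gene, the probe-set brightest on average over the 8 arrays was used. Sides were compared with limma 3.58.1 in R 4.3.3 (lmFit and eBayes, Benjamini-Hochberg over all probe-sets), with 2 means and 6 residual degrees of freedom, and tables were made in Python 3.11.15. Within a side, 1 mean per population was fitted. The pooling, 4 arrays a side, treats the populations of a side as replicates. The methods describe independent duplicate datasets but not which arrays shared a preparation. Every replicate 1 and Mx replicate 2 were on chip lot A and the other replicate 2 arrays on lot B, so that replicate number and lot nearly coincide. P-values measure the spread between these arrays. A total depth does not apply to arrays, and their number limits the precision.

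The members, gene lists, markers and tests were chosen with earlier results of these data known, and the sequence of a promoter came from RefSeq by gene symbol. Genes named are the 4 markers, the 15 leading genes of each side, up to 6 of the largest of each list and all members against its direction, the ligands and receptors, up to 8 genes of the largest differences within a side, up to 8 whose Mc arrays lie with the other side, and the genes nearest the 2-fold limit. Zeb1, Twist2, Snai1, Snai2, Cdh2, Fn1, Dcn, Cdh3, Tfap2a, Emp3 and the imprinted genes were named after their values were seen. Alternatives were another pseudocount, filters on low signal, quantile normalization, rescaling, other models, chip lot, replicate number and each array left out in turn. The combinations of quantile normalization with other settings were chosen after seeing the data. The script was tested on simulated data.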

Additional observations from a re-analysis of the deposited data

Results flagged for a closer look

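Of 312 groups of 4 arrays looked at, each a named gene on one side, 15 had 1 array far from the other 3 by Dixon's test. The test assumes 4 arrays of 1 population, whereas each group held 2 arrays of each of 2 populations. A rate of flags by chance is therefore not given. In 7 of the 15 flagged groups the array was DF replicate 2 and the gene was higher in epithelium. Its signal was 1131 for Dsp (319 to 400.1 on the other mesenchymal arrays), 749 for Perp (220.1 to 258), 492 for Trim29 (186 to 221.5) and 274 for Pkp3 (91.8 to 109). It was 157 for Scel (42 to 48), 125 for Fgfbp1 (42.6 to 50.9) and 20.4 for Sytl1 (5.6 to 6.5).

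On the epithelial side, ORS replicate 2 stood above the other arrays for Mylk, at 81.1 (29.8 to 33.1), and for Mef2c, at 15.6 (2.6 to 4.6), and ORS replicate 1 for Vegfc, at 14.3 (0.5 to 2.2). Mx replicate 2 was the highest for Fgf10, at 11.1 (3.4 to 4.2), and the lowest for Ednrb, at 27.1 (32.3 to 33.4), and for Cdkn1c, at 37.6 (55.2 to 58). Mx replicate 1 was the highest for Fgf7, at 32.3 (22.4 to 23.9), and the lowest for Klc1, at 131 (241 to 264). All of these but Klc1 are low signals.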

How the results depend on the processing

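Arrays of chip lot A alone gave 246 probe-sets called higher in epithelium and 541 higher in mesenchyme, with 3597 and 7649 separated. Lot B alone, with 1 epithelial array, from ORS, gave 6033 and 11223 separated. In lot B 488 were 2-fold with the epithelium above, counted only over the pairs of ORS with DF and DP because no Mx array was in that lot. A 1.5-fold limit gave 1355 and 2336, and a 4-fold limit 82 and 361. A pseudocount of 16 gave 2022 calls higher in mesenchyme, with 330 and 1002 in the set 2-fold in all pairs, and a pseudocount of 100 gave 780, with 123 and 386. A filter left fewer probe-sets to test. Separated with the mesenchyme above were 1706 of 7732 at a signal of 200 and 2669 of 11651 at 100, against 5057 of 22626 without a filter. Quantile normalization gave 3623 and 2605 separated, also with a mean for each population, where 840 were called higher in epithelium. With the filter at 200 it gave 1500 of 7732 with the mesenchyme above. Leaving out 1 array gave 427 to 624 calls higher in epithelium and 971 to 1325 higher in mesenchyme, 10 to 40 members called between Mx and ORS, and 119 to 173 between DP and DF. The S phase and mitosis list had 3 calls in lot A. Separation is easier to meet with fewer arrays, and a filter leaves fewer probe-sets to count. Counts of separated probe-sets from fewer arrays or with a filter are therefore not like those of the main setting. The cause of the other changes was not tested.

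The labels do not say that a replicate number pairs arrays. Deviations of same-numbered arrays correlated at 0.27 for Mx and ORS, 0.20 for DF and DP and 0.12 for ORS and DF, but at 0.069 for Mx and DF, 0.034 for Mx and DP and -0.047 for ORS and DP, so the numbers were not used as pairs, and these values do not settle whether some arrays shared a preparation. With the replicate block, 527 and 1135 probe-sets were called, and 118 of the 132 called genes named in the text stayed called.

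Of those 132 genes, 117 stayed called after quantile normalization, 118 with population as a random block, 115 with chip lot as a block, 80 in lot A alone, 0 in lot B alone, and between 110 and 123 without 1 array, and 25 lost the call without at least 1 array. None changed sign in any setting. Genes that were not called did: with 1 array left out Fgfr2 ranged from -0.27 (without DF replicate 1) to 0.75, Fn1 from -0.68 to 0.37 (without DF replicate 2) and Pdgfa from -0.37 to 0.066 (without DF replicate 2). With chip lot as a block Fn1 was at 0.018 and Pdgfa at 0.0039. In lot B, Fn1 was at 0.24, Pdgfa at 0.20, Dcn at -0.30, Kitl at -0.93, Shh at -0.090 and Snai2 at 0.097.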

Other observations

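Imprinted genes were looked at after Meg3 and Grb10 had been seen among the leading genes, so their list was chosen after the values were seen and supports nothing by itself. Of 33 on the array, 13 were called higher in mesenchyme and none higher in epithelium by limma, with 22 at an unadjusted p under 0.05 in either direction and 1 called higher in epithelium with a mean for each population. The median difference was -0.67, beside -0.13 over all genes. The summed signal was 2739 and 3302 in Mx and 5394 and 5411 in ORS, against 21106 and 21361 in DP and 23090 and 22457 in DF, with 8456 and 8206 in Mc. DP and DF were thus close to each other in that sum and well above both epithelial populations, and Mc lay between. Rian, a noncoding RNA of the same imprinted region as Meg3, read 15.6 and 28 in Mx and 39.2 and 14.3 in ORS, against 488 and 213 in DP and 429 and 217 in DF (-2.32 ± 0.26 (SE), adjusted p = 0.00135). Peg3, a paternally expressed zinc finger gene, read 144 and 118 in Mx and 519 and 498 in ORS, against 846 and 1118 in DP and 1283 and 1649 in DF (-1.97 ± 0.45 (SE), adjusted p = 0.0188), and Cdkn1c, a cyclin-dependent kinase inhibitor, 55.2 and 37.6 in Mx and 57.3 and 58 in ORS, against 354 and 327 in DP and 341 and 288 in DF (-1.89 ± 0.10 (SE), adjusted p = 3.37e-05).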
